A study of Mus musculus with 18 samples.

Results

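Mitochondrial ribosomal protein genes were followed in the hippocampus of mice exposed to intermittent hypoxia treatment (IHT) or reared for 12 months. The members were all probe sets annotated to exactly 1 gene whose symbol is Mrpl or Mrps followed by a number, and each gene was read from its probe set with the largest mean signal. This gave 76 genes of 18194 genes with such probe sets, 47 with an Mrpl symbol and 29 with an Mrps symbol, on 156 probe sets. All 76 passed the minimum mean signal of 20 and were among the 11657 genes tested.

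Mitochondria carry their own ribosome, which translates the few mRNAs of mitochondrial DNA into membrane proteins of the respiratory chain. Its RNA comes from the mitochondrial genome, whereas every one of its proteins is encoded in the nucleus, made in the cytosol and imported. Proteins named Mrpl mostly build the large subunit, which joins amino acids, and proteins named Mrps mostly build the small subunit, which reads the mRNA. Some have a counterpart in bacterial ribosomes and others exist only in mitochondria. Neurons depend on the respiratory chain for most of their ATP, and inherited defects of these proteins affect brain, heart and muscle.

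RNA of whole hippocampus was measured on Affymetrix mouse arrays in 6 groups of 3 arrays each. All groups were C57Bl/6 mice, which according to the methods were males of the substrain C57BL/6J, and no transgene or deletion is named. IH5D mice received IHT for 5 days, IH5DR2 mice received the same followed by 64 h in normal air (labelled 2 days of recovery), and IH28D mice received IHT for 28 days. IHT lasted 8 h a day in cycles of 3 min, in which 1 min of nitrogen lowered the inspired oxygen to 5% and 2 min of room air brought it back to 21%, and the mice were 10 weeks old at its start. The 12 m group consisted of mice reared for 12 months without IHT. Ctrl28 mice were kept for 28 days in normal air as controls of IH28D, and Ctrl mice were the untreated controls, whose age at sampling is not given in the sources used here. Whether the 3 arrays of a group come from separate mice is not stated in the labels, so the p-values measure the spread between arrays, which may be technical. In RNA of whole tissue, fewer cells of a type and less RNA per cell cannot be told apart.

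Signals below are unlogged MAS5 signals, given in the order of arrays 1, 2 and 3 of a group. Genes were called as risen or fallen at an adjusted p from limma below 0.05, corrected over all 11657 genes. Log2 fold changes are given with their standard error (SE), and signals of different probe sets were not set against each other.

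The arrays differed in RNA quality and in one neighbouring tissue. The log2 signal of the 3' control probe sets of Actb and Gapdh exceeded that of their 5' probe sets by 0.617 to 0.861 in 12 m and by 0.822 to 2.39 in Ctrl28, and by 0.328 to 0.535 in the other 4 groups. The largest gap, 2.39, was that of array 1 of Ctrl28. Neuron markers stood at a mean log2 signal of 11.3 to 11.7 on all 18 arrays, but single markers moved in both directions. In 12 m against Ctrl 2 of 5 neuron markers rose and 1 fell. Markers of the choroid plexus, a tissue beside the hippocampus, had mean log2 signals of 5.04 to 5.63 in 12 m, 6.45 to 9.95 over the 3 IHT groups, 9.66 to 9.97 in Ctrl28 and 6.33 to 10.03 in Ctrl. The part of RNA quality and of choroid plexus in the results was not tested. Fits with the gap as a covariate take its slope from differences between arrays of the same group. The standard deviation of the gap was 0.866 in Ctrl28, against 0.125 in 12 m and 0.067 in Ctrl. These fits therefore cannot separate the gap from what is particular to array 1 of Ctrl28.

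Averaged over the 76 members, the log2 signal was 7.97, 7.85 and 7.86 on the 12 m arrays, against 8.35, 8.61 and 8.51 on the Ctrl arrays. Every 12 m array lay below every Ctrl array. The IH28D arrays stood at 8.22, 8.04 and 7.91, the IH5D arrays at 8.07, 8.29 and 8.27, and the IH5DR2 arrays at 8.26, 8.29 and 8.14. These too lay below all 3 Ctrl arrays. The Ctrl28 arrays were split, with array 1 at 8.58, inside the range of Ctrl, and arrays 2 and 3 at 8.13 and 8.11. Array 3 had the lowest choroid plexus markers in each of the 6 groups. In the members it was the lowest array of its group in IH5DR2, IH28D and Ctrl28. It stood between the other arrays in IH5D, 12 m and Ctrl. Whether these levels are related was not tested. On the 12 m arrays 70, 72 and 74 of the 76 members were below their Ctrl mean, where this held for 61.5%, 60.9% and 58.7% of all genes. On the Ctrl28 arrays 33, 67 and 66 members were, and the Ctrl arrays themselves had 65, 9 and 28 members below that mean.

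**Figure D1:**
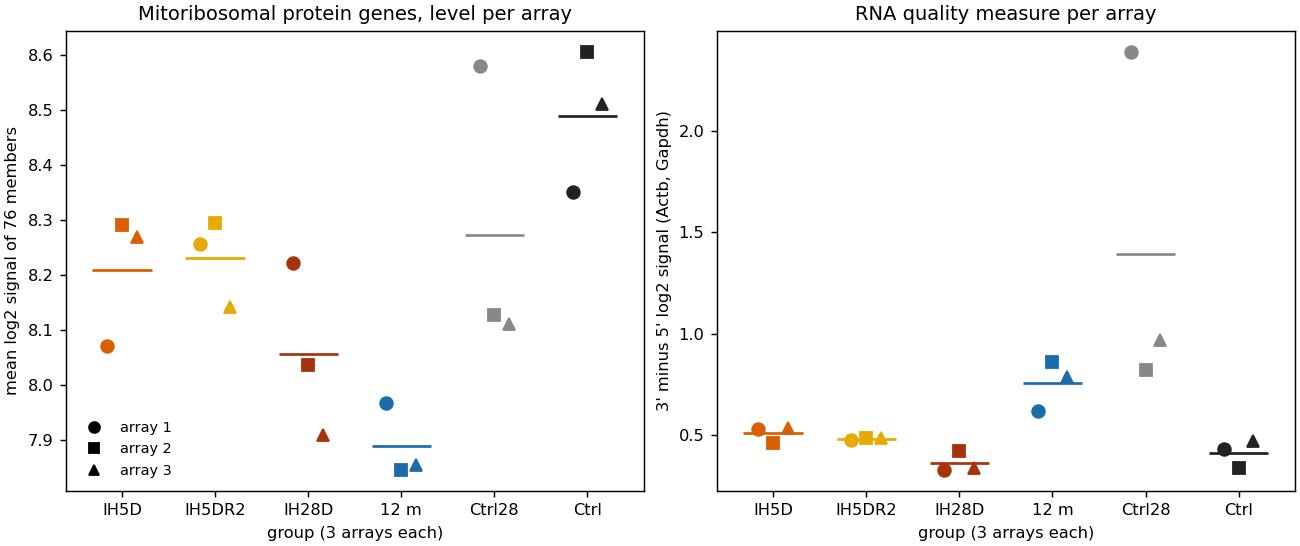
Left, mean log2 signal of the 76 members on each of the 18 arrays, by group, with the symbol giving the array number and the bar the group mean. Right, the 3' minus 5' log2 signal of the Actb and Gapdh controls on the same arrays. On the left 12 m has the lowest group mean (7.89), and array 1 of Ctrl28 is above the other Ctrl28 arrays in both panels (8.58 and 2.39).

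The comparison of 12 m with Ctrl sets mice reared for 12 months against the untreated controls. These groups also differed without overlap in the gap and in the choroid plexus markers. Mitoribosomal protein genes fell in both subunits: 60 of 76 members fell and 1 rose, where 31.6% of all genes tested fell and 21.7% rose. Their median log2 fold change was -0.66, and that of all genes was -0.23. Of the 76 members 74 had a lower mean in 12 m than in Ctrl. In 66 members all 3 arrays of 12 m were below all 3 arrays of Ctrl, a pattern seen in 39.4% of all genes. In the large subunit 40 of 49 members fell (median -0.65) and in the small subunit 19 of 26 (median -0.68). Members with a bacterial counterpart fell in 37 of 47 cases (median -0.65) and members found only in mitochondria in 22 of 28 (median -0.67).

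**Figure D2:**
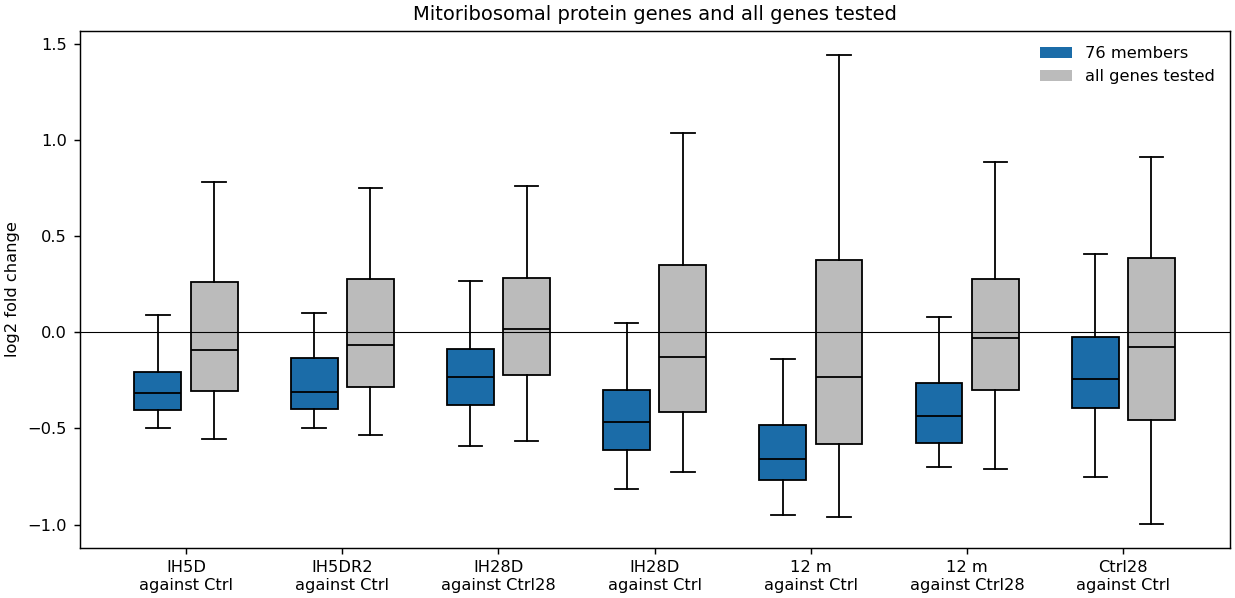
Log2 fold changes of the 76 members (blue) and of all 11657 genes tested (grey) in 7 comparisons, with the median as a line, the quartiles as the box and the 5th and 95th percentiles as whiskers. The members' median is lowest in 12 m against Ctrl (-0.66, against -0.23 for all genes).

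Among large subunit members with a bacterial counterpart, Mrpl2, Mrpl10 and Mrpl17 had the smallest p. Mrpl2, whose bacterial counterpart helps form the site of peptide bond formation, had signals of 229, 192 and 249 in 12 m, against 384, 452 and 422 in Ctrl (log2 fold change -0.92 ± 0.14, adjusted p = 7.69e-05). Mrpl10, which anchors the stalk that recruits translation factors, had signals of 237, 222 and 214 in 12 m, against 356, 405 and 343 in Ctrl (-0.71 ± 0.11, adjusted p = 9.88e-05). The groups did not overlap in either gene. Mrpl17, the counterpart of a bacterial protein near the exit of the peptide tunnel, had signals of 232, 239 and 242 in 12 m, against 431, 558 and 460.0 in Ctrl (-1.02 ± 0.17, adjusted p = 0.000207). Its 12 m arrays lay close together, far below those of Ctrl. The stalk protein Mrpl12, which carries the contact for translation factors and also binds the mitochondrial RNA polymerase, fell by 0.82 ± 0.17 (adjusted p = 0.000732), and Mrpl11 at the base of the same stalk fell by 0.82 ± 0.17 (adjusted p = 0.00103).

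Among large subunit members found only in mitochondria, Mrpl43, Mrpl38 and Mrpl57 came first. Mrpl43 had signals of 284, 251 and 255 in 12 m, against 401, 519 and 472 in Ctrl (-0.81 ± 0.12, adjusted p = 8.43e-05). Mrpl38, which belongs to the central protuberance of the subunit, had signals of 108, 115 and 94.2 in 12 m, against 188, 182 and 169.5 in Ctrl (-0.77 ± 0.13, adjusted p = 0.00017). Both fell without overlap of the groups, but the other probe set of Mrpl38, at a mean signal of 30.4, had a log2 fold change of 0.11. Mrpl57 fell by 0.91 ± 0.20 (adjusted p = 0.00123). Mrpl58, a peptidyl-tRNA hydrolase built into the ribosome that frees stalled chains, fell by 0.76 ± 0.18 (adjusted p = 0.00273), and so did Mrps30, a protein of the large subunit in spite of its symbol, by 0.92 ± 0.21 (adjusted p = 0.0016).

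In the small subunit the lowest p was that of Mrps11, whose bacterial counterpart sits on the platform of the subunit along the mRNA path. Its signals were 133, 144 and 149 in 12 m, against 272, 358 and 298 in Ctrl (-1.12 ± 0.15, adjusted p = 2.97e-05), the lowest log2 fold change of all members in this comparison. The highest 12 m array was far below the lowest Ctrl array. Mrps17 (-0.80 ± 0.14, adjusted p = 0.000271) and Mrps15 (-0.62 ± 0.13, adjusted p = 0.000733), whose bacterial counterparts bind the ribosomal RNA early in assembly, fell too. Among proteins of the small subunit found only in mitochondria, Mrps34, which keeps the subunit stable, had signals of 688, 633 and 616 in 12 m, against 993, 1300.0 and 1254 in Ctrl (-0.86 ± 0.15, adjusted p = 0.000219). Its groups did not overlap. Mrps23 fell by 0.69 ± 0.12 (adjusted p = 0.000188) and Mrps35 by 0.60 ± 0.12 (adjusted p = 0.000541).

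**Figure D3:**
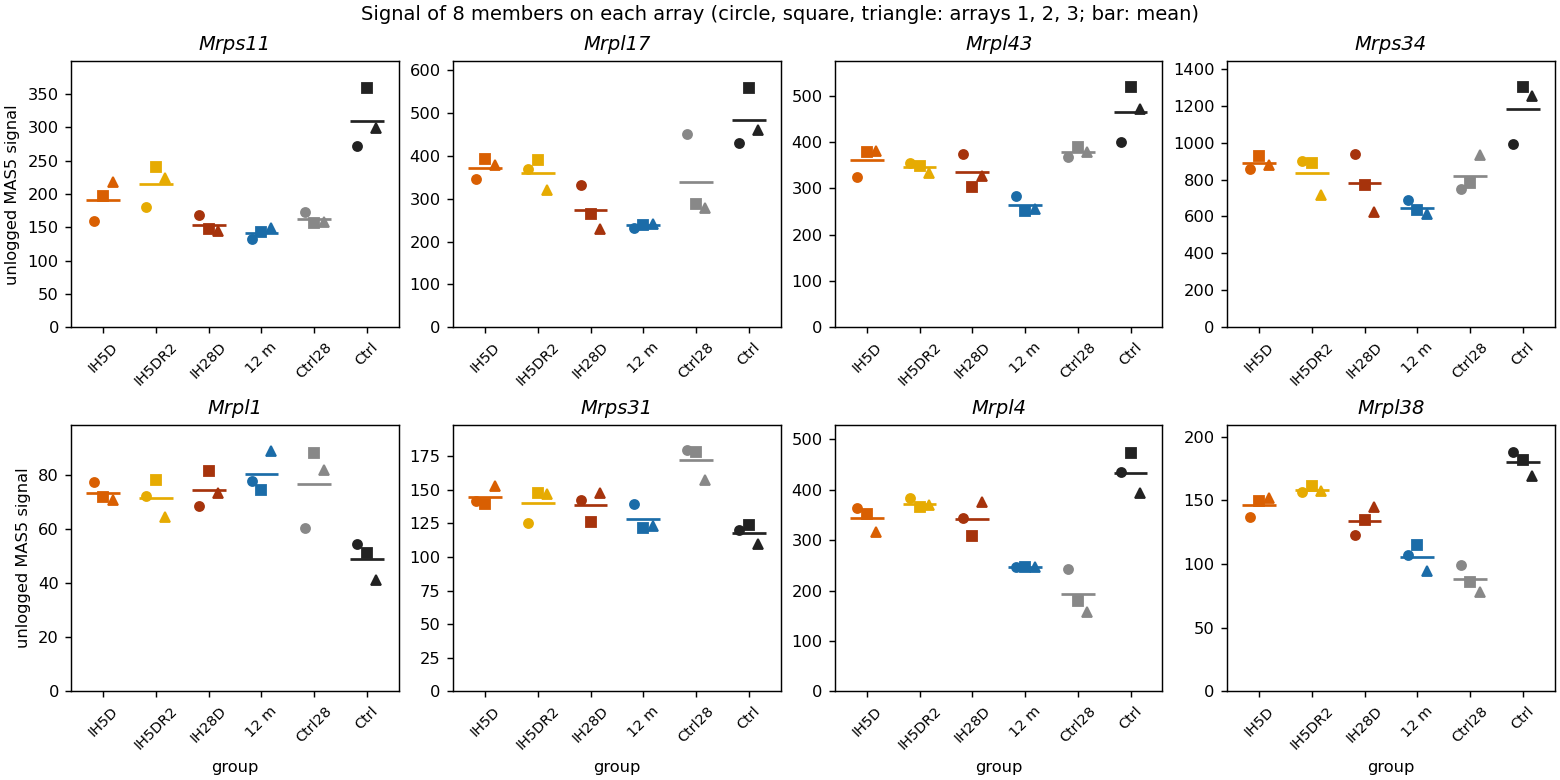
Unlogged MAS5 signals of 8 members on every array (circle, square and triangle for arrays 1, 2 and 3) with the group mean as a bar. In Mrps11, Mrpl17, Mrpl43 and Mrps34 the 12 m arrays lie below all Ctrl arrays. Mrpl1 is lowest in Ctrl, Mrps31 is highest in Ctrl28, and Mrpl4 and Mrpl38 are lowest in Ctrl28.

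The 3 Mrps18 genes are paralogs that all descend from bacterial S18. Mrps18a, which ended up in the large subunit, had signals of 428, 462 and 428 in 12 m, against 564, 829.7 and 705 in Ctrl (-0.65 ± 0.17, adjusted p = 0.00373). Mrps18b had signals of 140.3, 163 and 168 in 12 m, against 188, 222 and 185 in Ctrl, a log2 fold change of -0.34 ± 0.14 that missed the threshold (adjusted p = 0.0528). Mrps18c had signals of 397, 360.3 and 296 in 12 m, against 439, 463 and 469 in Ctrl (-0.39 ± 0.26, adjusted p = 0.22). All 3 had no overlap between 12 m and Ctrl, and only Mrps18a passed the test. The difference between the paralogs was not tested. Mrps36, which carries the family symbol although the protein is a subunit of the 2-oxoglutarate dehydrogenase complex, fell by 0.94 ± 0.27 (adjusted p = 0.0086).

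A single member was called in the direction opposite to the rest. Mrpl1, whose bacterial counterpart forms the mobile stalk that releases spent tRNA, had signals of 78.0, 74.4 and 88.9 in 12 m, against 54.5, 51.2 and 41.2 in Ctrl (0.72 ± 0.17, adjusted p = 0.00222). Ctrl was below all other groups in this gene, whose lowest array elsewhere was Ctrl28 array 1 at 60.4. Its second probe set had a log2 fold change of 0.31 in the same comparison. The other 15 members outside the calls were Mrpl18, Mrpl22, Mrpl32, Mrpl33, Mrpl39, Mrpl47, Mrpl50, Mrpl51, Mrps5, Mrps9, Mrps18b, Mrps18c, Mrps22, Mrps27 and Mrps31, with log2 fold changes of -0.51 to 0.12 on the probe sets used. A second probe set of Mrpl50 had a log2 fold change of 1.12 at a mean signal of 95.9. The one used for Mrpl50 had -0.18 at a mean signal of 104.1. Probe sets other than those used were not tested on their own.

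The 61 calls in 12 m against Ctrl were 49 to 67 when each array in turn was left out, with 48 to 66 fallen. Of all genes 22.0% to 36.9% fell in these fits. The methods' t-test called 62 members lower and 1 higher at the methods' own threshold, an unadjusted p below 0.05, where 27.3% of all genes were lower, and 16, all lower, after Benjamini-Hochberg adjustment, where 7.9% of all genes were. With the gap as a covariate 68 members fell and 1 rose, where 38.4% of all genes fell. The slope of that fit rests mostly on Ctrl28, so it cannot give the part of the gap in 12 m. With the mean of all probe sets of a gene 53 fell and 1 rose, where 30.6% of all genes fell. Choroid plexus markers fell in 5 of 6 cases in the same comparison (median -3.23), and 2 of 5 markers of hippocampal excitatory neurons fell (median -0.63), at a mean log2 signal of 7.93 to 8.81 in 12 m and 9.002 to 9.167 in Ctrl. Of 4 oligodendrocyte markers 2 fell and 1 rose (median -0.34), at a mean log2 signal of 10.958 to 11.073 in 12 m and 11.137 to 11.385 in Ctrl. Of 3 interneuron markers 1 rose and 1 fell (median 0.09), at a higher mean log2 signal of 9.458 to 9.676 in 12 m and 9.316 to 9.439 in Ctrl. The part of these cells in the result was not tested. Of 32 members with at least 2 probe sets above 20, all probe sets had the same sign in 20. In 8 of the members called, a probe set opposed the one that stood for the gene: Mrpl38, Mrps14, Mrpl15, Mrps21, Mrpl48, Mrpl21, Mrps25 and Mrpl3. The opposing probe sets of Mrps21 (0.43 at a mean signal of 29.0), Mrps14 (0.19 at 23.0) and Mrpl15 (0.60 at 32.2) lay near the minimum of 20, as did those of Mrpl21 (0.12 at 25.9) and Mrps25 (0.44 at 31.7). Those of Mrpl48 (0.19 at 109.7) and Mrpl3 (0.30 at 80.1) did not.

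Promoters were examined because the members moved together. RefSeq promoters of build GRCm38.p6, from 250 bases before to 50 after the start, matched 67 of the 76 members. Letters of 3 factors known to bind promoters of mitochondrial genes were searched on both strands: the palindrome of NRF1, CCGGAAG for GABP and AAGATGGC for YY1. No matches of different motifs overlapped in the members. CCGGAAG was found in 25 of 67 promoters (37.3%, against 12.9% of 17491 protein-coding genes), AAGATGGC in 12 (17.9% against 3.57%) and the NRF1 palindrome in 3 (4.48% against 1.47%). The median log2 fold change in 12 m against Ctrl was -0.68 with CCGGAAG and -0.64 without it, -0.66 with AAGATGGC and -0.64 without it, and -0.32 in the 3 members with the NRF1 palindrome and -0.66 in the rest. A match is a description of the letters and not of binding. The NRF1 values hold for the exact palindrome only, and how many members carry another form of its site was not tested. Mrps23, Mrpl57, Mrps21, Mrps18b and Mrps18c, also named above, held a CCGGAAG site that is not shown. Of these, Mrps18b and Mrps18c were not called in 12 m against Ctrl. The sites of 5 other named genes, all of which fell in that comparison, are shown with 10 bases on either side. They run 5' to 3' on the strand of the gene, and capitals mark the motif or its reverse complement.
Mrps11, YY1 motif on the opposite strand, chr7:78783014-78783041, plus strand, 107 bases before the start: tacgggcgccGCCATCTTtctgtcttcc
Mrpl43, GABP motif, chr19:45006482-45006508, minus strand, 56 bases before the start: cgcggtgactCCGGAAGcaaaactctc
Mrpl43, GABP motif, chr19:45006438-45006464, minus strand, 12 bases before the start: aaccccggaaCCGGAAGtcaccggtta
Mrpl17, GABP motif, chr7:105811308-105811334, minus strand, 237 bases before the start: catgctccgcCCGGAAGgcgcctcctc
Mrpl58, GABP motif, chr11:115403725-115403751, plus strand, 17 bases before the start: tggcggaccgCCGGAAGagtgagcacc
Mrpl58, GABP motif, chr11:115403740-115403766, plus strand, 2 bases before the start: agagtgagcaCCGGAAGcggtcctggg
Mrps18a, GABP motif, chr17:46110968-46110994, plus strand, 26 bases before the start: cacccctgctCCGGAAGcggaagtgca
Mrps18a, YY1 motif, chr17:46111005-46111032, plus strand, 11 bases after the start: ggtgcgttccAAGATGGCggccctcagg
Of these 5 genes, the 250 bases before the start of Mrps11 reach into Mrpl46 and those of Mrpl43 into Twnk, which encodes the helicase of mitochondrial DNA. The stretch before Mrpl17 lies in no annotated gene, at chr7:105811088-105811337 on the minus strand, and is shown whole because the gene had the second lowest log2 fold change in 12 m. It holds gcgcacgcgc, the letters of the NRF1 palindrome with c in place of t. Near its end it also holds gcgcatgcgt, the palindrome with t in place of the last c. Neither counted as a match.
Mrpl17: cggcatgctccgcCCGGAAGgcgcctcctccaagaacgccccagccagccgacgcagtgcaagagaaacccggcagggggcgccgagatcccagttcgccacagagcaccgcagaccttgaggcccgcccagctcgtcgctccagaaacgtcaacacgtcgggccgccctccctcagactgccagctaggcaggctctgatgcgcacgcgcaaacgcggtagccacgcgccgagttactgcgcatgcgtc

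Many members share a promoter region with a neighbour. In 22 of 67 members (32.8%) a protein-coding gene started on the opposite strand within 1000 bases upstream, against 8.25% of protein-coding genes. Mrps11 and Mrpl46 are such neighbours of each other, with starts 42 bases apart, and both fell in 12 m against Ctrl (-1.12 and -0.64). Both genes also fell in the pairs Mrpl40 and Hira, Mrpl41 and Pnpla7, and Mrpl49 and Fau. Mrpl2, Mrpl14, Mrpl21, Mrps7 and Mrps12 fell, while their neighbours Klc4, Tmem63b, Ighmbp2, Gga3 and Sars2 were not called. Mrpl32 and Mrpl47 were not called in that comparison (-0.15 and -0.14), while Psma2, a proteasome subunit beside Mrpl32, fell by 0.85 and Ndufb5, a subunit of respiratory complex I beside Mrpl47, fell by 0.68. In the remaining pairs neither gene was called or the neighbour was not among the genes tested.

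The partners of the mitoribosome, from lists chosen like the members with earlier results known, were read from the same fit of 12 m against Ctrl, in which 31.6% of all genes fell and 21.7% rose, with a median of -0.23. Of 24 measured assembly factors 15 fell (62.5%) and 2 rose (median -0.54), among them Rbfa, which binds the small subunit RNA during maturation (-0.68), and Mpv17l2, needed for assembly of the ribosome (-1.04). The list of 19 genes for charging mitochondrial tRNAs held synthetases and the amidotransferase subunits Gatb, Gatc and Qrsl1. Of these 19 genes 8 fell (42.1%) and none rose (median -0.33), with the smallest p in Kars (-0.57), which also serves the cytosol, and Pars2 (-0.86). Of 13 translation factors and other genes of mitochondrial translation, Oxa1l and Lrpprc among them, 2 fell and 2 rose (15.4% each, median -0.14). The log2 fold change was -0.89 for Oxa1l, which inserts new chains into the inner membrane, and 0.86 for Mtif2, which starts translation. Of 18 genes of mitochondrial transcription, RNA and DNA replication (the last being Polg, Polg2, Twnk and Ssbp1) 6 fell and 6 rose (33.3% each, median -0.30). Among them were Hsd17b10, a subunit of mitochondrial RNase P, at -1.09, and Mterf2, which binds mitochondrial DNA, at 1.19. Among 4 mitoribosomal proteins under other symbols, Dap3, a GTP-binding protein of the small subunit, and Gadd45gip1, a protein of the large subunit, fell (-0.74 and -0.89), and Ptcd3, which binds the mRNA side of the small subunit, rose (0.56).

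The 12 m arrays were also set against the other control group. In 12 m against Ctrl28, 21 of 76 members fell and none rose, where 8.3% of all genes fell and 8.05% rose, and the median was -0.44 against -0.03 for all genes. All 12 m arrays were below all Ctrl28 arrays in 42 members and above them in 1, where this held for 17.5% and 13.8% of all genes. The 2 comparisons share the 12 m arrays. The 16 members that fell in 12 m against both controls were Mrpl2, Mrpl20, Mrpl23, Mrpl35, Mrpl41, Mrpl42, Mrpl43, Mrpl46, Mrpl57, Mrps2, Mrps14, Mrps17, Mrps26, Mrps28, Mrps33 and Mrps35. Mrpl43 had signals of 368, 389 and 378 in Ctrl28, all above its 12 m arrays (-0.52 ± 0.12, adjusted p = 0.00917). Mrps14 had signals of 589, 463 and 422 in 12 m, against 969, 694 and 746 in Ctrl28 (-0.71 ± 0.16, adjusted p = 0.00747). Mrps11, with signals of 173, 156 and 158 in Ctrl28, had a log2 fold change of only -0.19 ± 0.15 (adjusted p = 0.386), although the groups did not overlap. Mrps2 and Mrps9 fell with a probe set of opposite sign (0.87 and 0.84). The count depended on single arrays: 10 and 9 members fell without arrays 2 and 3 of 12 m, where 5.15% and 4.37% of all genes fell. Without array 3 of Ctrl28 34 fell, where 9.39% of all genes did. Without array 1 of Ctrl28, 13 fell and 1 rose (median -0.27), where 7.86% of all genes fell and 9.46% rose. With the gap as a covariate 6 fell and 1 rose (median -0.22), where 6.42% of all genes fell and 8.2% rose (median -0.015). No member passed with the compared groups alone, where 0.592% of all genes fell and 0.884% rose. All 6 choroid plexus markers fell in this comparison (median -4.27).

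**Figure D4:**
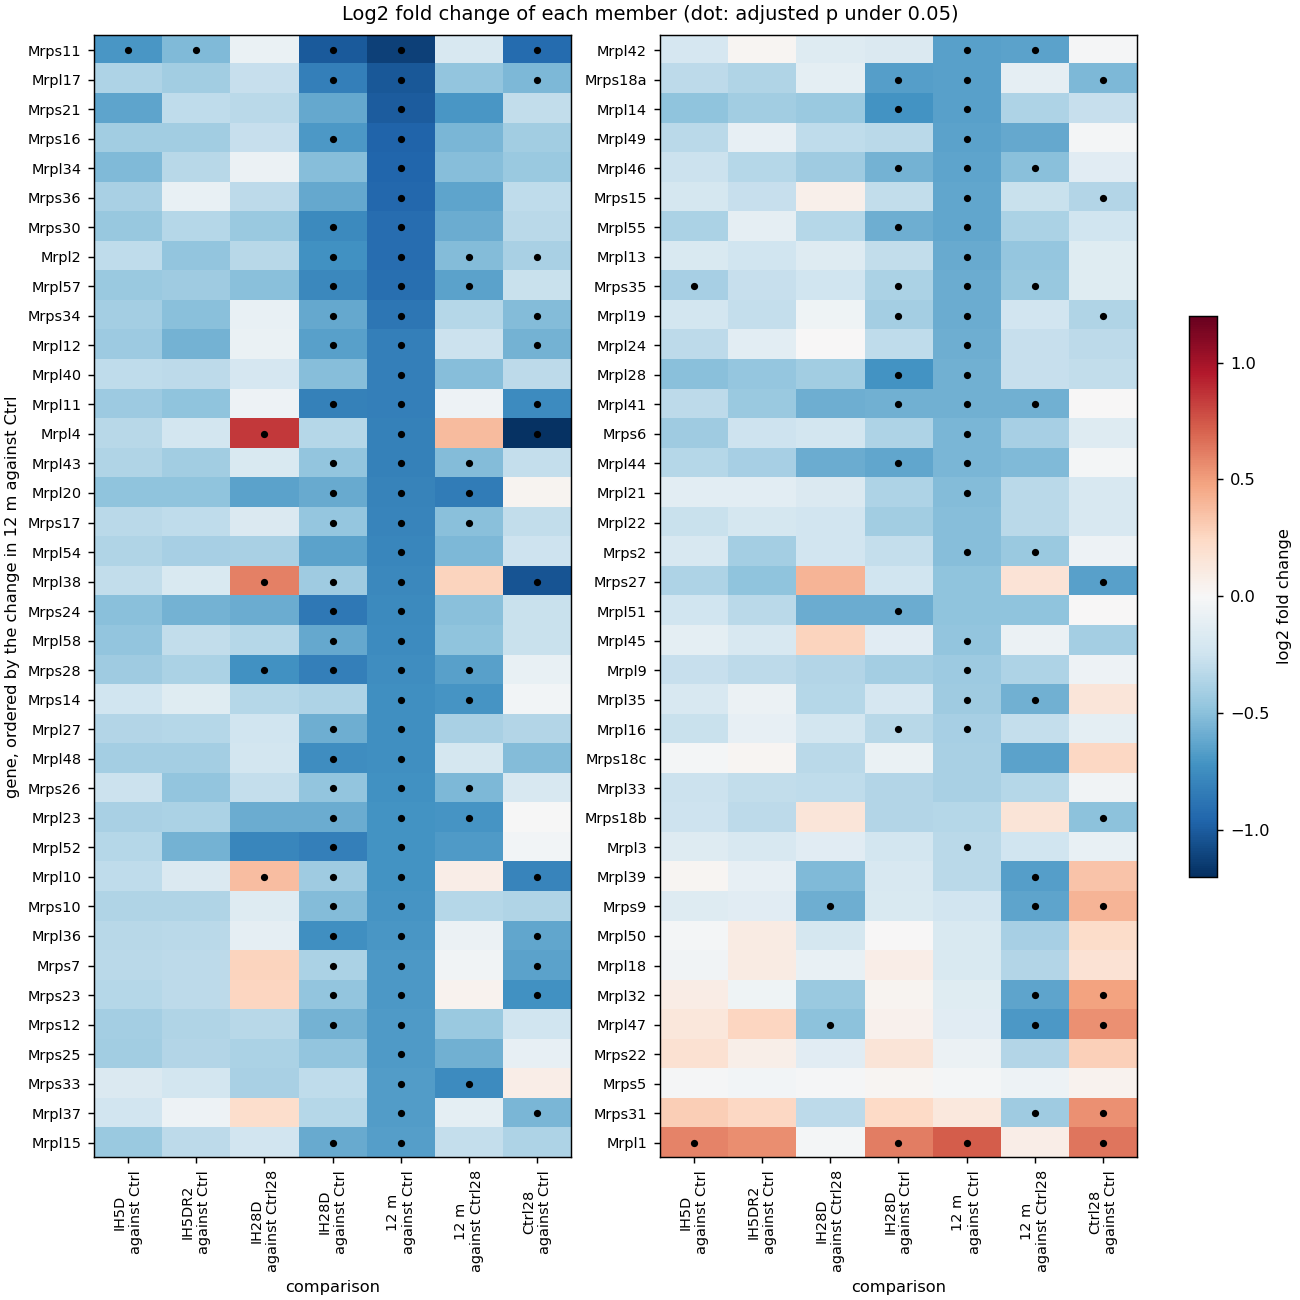
Log2 fold change of each of the 76 members in 7 comparisons, ordered by 12 m against Ctrl, with a dot where the adjusted p was below 0.05. Blue is lower and red higher in the group named first. The column of 12 m against Ctrl is blue in 74 members, and Mrpl1 is the only member with a dot on red there.

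The comparison of IH5D with Ctrl sets the end of 5 days of IHT against the untreated controls. The members lay lower as a family but few passed the test: 1 of 76 rose and 2 fell, where 5.4% of all genes rose and 1.12% fell. The median log2 fold change was -0.32, against -0.10 for all genes, and 70 of 76 members had the lower mean in IH5D. In 38 members all IH5D arrays were below all Ctrl arrays, which was the case in 22.9% of all genes. Mrps11 had signals of 159.8, 196 and 218 in IH5D, against 272, 358 and 298 in Ctrl (-0.70 ± 0.15, adjusted p = 0.0182). Mrps35 had signals of 116, 112 and 126 in IH5D, against 143, 169 and 156 in Ctrl (-0.40 ± 0.12, adjusted p = 0.0489). Neither gene overlapped between the groups. Mrpl1 rose, with signals of 77.3, 71.9 and 70.8 in IH5D (0.59 ± 0.17, adjusted p = 0.0465), all above those of Ctrl.

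This count was sensitive to arrays outside the comparison, which enter the shared estimate of the spread. Without array 1 of Ctrl28, 21 members fell and 1 rose in IH5D against Ctrl, where 9.19% of all genes fell and 14.2% rose, and with the gap as a covariate 22 fell and 1 rose, where 10.3% of all genes fell and 14.7% rose. With the IH5D and Ctrl arrays alone 10 fell and 1 rose, where 7.0% of all genes fell and 11.3% rose. Equal array numbers of IH5D and Ctrl correlated in their deviations from the group means, which does not establish a pairing. With the number as a block 1 member fell in the fit of all arrays, where 0.489% of all genes fell. With that block in a fit of the IH5D and Ctrl arrays alone, chosen after seeing the data, 42 fell and 1 rose. There 18.4% of all genes fell and 16.7% rose. By the methods' t-test 16 fell and 2 rose at an unadjusted p below 0.05, where 11.7% and 10.3% of all genes did, and no member passed after adjustment. No member passed without array 2 or 3 of Ctrl, where 0.0% of all genes rose or fell. None passed without array 1 or 3 of IH5D, where 0.146% and 0.069% of all genes rose and 0.0086% fell in each. A single member, which fell, passed without array 2 of IH5D, any IH5DR2 or IH28D array or array 1 or 2 of 12 m. There 0.24% to 0.90% of all genes fell. Without array 1 of Ctrl 6 members fell and 1 rose, where 2.38% of all genes fell and 8.97% rose.

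The comparison of IH5DR2 with IH5D sets 64 h of recovery against the end of IHT. In IH5DR2 against IH5D no member passed limma's test and none had an unadjusted p below 0.05 in it, where 0 of 11657 genes passed and 418 had an unadjusted p below 0.05. The methods' t-test gave 3 members higher at an unadjusted p below 0.05, where 3.0% of all genes were, and none after Benjamini-Hochberg adjustment. The members' log2 fold changes were -0.22 to 0.32 (median 0.00), and all IH5DR2 arrays were below all IH5D arrays in 3 members and above them in 8, where this held for 7.11% and 7.66% of all genes. Mrps11 had signals of 181, 239.6 and 224 in IH5DR2, against 159.8, 196 and 218 in IH5D (0.17 ± 0.15), and the groups overlapped. Against Ctrl, IH5DR2 had a median of -0.31 (all genes -0.07), 1 member fell and none rose, where 1.24% of all genes fell and 4.38% rose. That member was Mrps11 (-0.53 ± 0.15, adjusted p = 0.0469). IH5D and IH5DR2 share the Ctrl arrays here. The count was 20 fallen and 1 risen without array 1 of Ctrl28, where 8.6% of all genes fell. It was 7 fallen and 1 risen without array 1 of Ctrl, where 2.985% of all genes fell, and 3 fallen without array 3 of Ctrl28 (1.69%). It was 2 fallen without array 3 of 12 m (1.56%) or of IH28D (0.84%), and 1 without array 1 of IH5D (0.74%). Without any other array it was 0.

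The IH28D arrays were set against both control groups. In IH28D against Ctrl28, 3 of 76 members rose and 3 fell, where 6.06% of all genes rose and 2.44% fell, and the median was -0.23 against 0.02 for all genes. Under median centring or quantile normalization 2 rose and 4 fell, where 3.75% or 4.98% of all genes rose and 3.41% or 2.48% fell. In IH28D against Ctrl, 39 fell and 1 rose, where 15.8% of all genes fell and 17.5% rose, and the median was -0.47 against -0.13 for all genes. In that comparison 53 members had all IH28D arrays below all Ctrl arrays, which held for 29.2% of all genes. Mrps11 had signals of 168, 147 and 145 in IH28D, a log2 fold change of -1.01 ± 0.15 against Ctrl (adjusted p = 0.000523) and of -0.08 ± 0.15 against Ctrl28 (adjusted p = 0.774). Mrpl17 had signals of 332, 264 and 228 in IH28D (-0.82 ± 0.17 against Ctrl, adjusted p = 0.00323). In Mrpl15, Mrpl48, Mrpl38 and Mrpl51, which fell against Ctrl, another probe set had the opposite sign. Astrocyte markers had mean log2 signals of 8.30 to 8.59 in IH28D and 8.68 to 8.725 in Ctrl, without overlap, and 2 of 5 fell and 1 rose (median -0.05). Of 5 microglia markers 1 fell (median -0.47). Interneuron markers were higher without overlap, at 9.539 to 9.745 in IH28D and 9.316 to 9.439 in Ctrl, and 1 of 3 rose (median 0.11). The part of these cells in the result was not tested. The count against Ctrl was 12 and 23 without arrays 2 and 3 of Ctrl, with 11 and 23 fallen, where 4.83% and 8.29% of all genes fell. It was 18 and 20 without arrays 2 and 3 of IH28D, with 18 and 19 fallen, where 6.43% and 10.1% of all genes fell.

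The members that fell in IH28D against Ctrl28 were Mrpl47, Mrps9 and Mrps28. Mrpl47, the counterpart of a bacterial protein at the tunnel exit, had signals of 223, 220.3 and 212 in IH28D, against 376, 263 and 295 in Ctrl28 (-0.50 ± 0.14, adjusted p = 0.0376). Mrps9, whose bacterial counterpart reaches the tRNA in the P site, had signals of 193, 173 and 162 in IH28D, against 270.2, 266 and 254 in Ctrl28 (-0.59 ± 0.14, adjusted p = 0.0122). Neither gene overlapped between these groups, and neither differed by the test between IH28D and Ctrl (0.05 ± 0.14 and -0.18 ± 0.14). Mrps28, the counterpart of bacterial S1, had signals of 196, 175 and 145 in IH28D, against 406, 222 and 250 in Ctrl28 (-0.73 ± 0.19, adjusted p = 0.0249), and also fell against Ctrl (-0.82 ± 0.19, adjusted p = 0.00513). A probe set of Mrps9 at a mean signal of 36.8 had the opposite sign (0.40). Mrpl44, an RNase III-like protein of the large subunit, had signals of 371, 316 and 348 in IH28D, against 785, 405 and 447 in Ctrl28. Other probe sets of Mrpl44 had 0.58 at a mean signal of 59.25, -0.15 at 126.2 and -0.54 at 336.8. The one used missed the threshold (-0.60 ± 0.18, adjusted p = 0.0518). So did Mrpl52 (-0.79 ± 0.25, adjusted p = 0.063), Mrps24 (-0.59 ± 0.22, adjusted p = 0.111), Mrps31 (-0.31, adjusted p = 0.129), Mrps33 (-0.39 ± 0.19, adjusted p = 0.21) and Mrps23 (0.26 ± 0.12, adjusted p = 0.178).

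The members that rose in IH28D against Ctrl28 were Mrpl4, Mrpl38 and Mrpl10, which were all low in Ctrl28. Mrpl4, whose bacterial counterpart lines the peptide tunnel, had signals of 344, 308 and 376 in IH28D, against 244, 179 and 157 in Ctrl28 (0.84 ± 0.14, adjusted p = 0.00131), and 435, 474 and 394 in Ctrl. Mrpl38 had signals of 122, 135 and 144 in IH28D, against 99.5, 86.1 and 78.4 in Ctrl28 (0.61 ± 0.13, adjusted p = 0.00669), while its other probe set, at a mean signal of 30.4, had a log2 fold change of -0.30. Mrpl10 had signals of 294, 251 and 279.7 in IH28D, against 206, 226 and 207 in Ctrl28 (0.37 ± 0.11, adjusted p = 0.048). In all 3 genes every IH28D array was above every Ctrl28 array and below every Ctrl array. The count in this comparison was 3 without array 2 of IH28D, where 4.12% of all genes rose and 0.678% fell. It was 2 without array 3 of IH28D, where 2.985% rose and 0.987% fell. Without array 2 of Ctrl28 2 members rose and 8 fell, where 4.31% of all genes rose and 2.35% fell. With the compared groups alone it was 0, where 0.292% of all genes rose and 0.0086% fell. Without array 1 of Ctrl28, 4 rose and 2 fell, where 11.4% of all genes rose and 4.19% fell, and the median was -0.12. With the gap, which was 0.328 to 0.422 in IH28D and 0.822 to 2.39 in Ctrl28, as a covariate 5 rose and 1 fell, where 11.0% of all genes rose and 4.94% fell, and the median was 0.00.

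Between the 2 control groups, with no IHT on either side, 18 of 76 members fell and 5 rose in Ctrl28 against Ctrl, where 21% of all genes fell and 16.9% rose. The share of members that fell, 23.7%, was thus near that of all genes. The median was -0.25 against -0.08 for all genes. Mrpl4 (-1.19 ± 0.14, adjusted p = 1.56e-05), Mrpl38 (-1.04 ± 0.13, adjusted p = 2e-05, with 0.42 for its other probe set) and Mrps11 (-0.92 ± 0.15, adjusted p = 0.000177) had the lowest log2 fold changes. The stalk proteins Mrpl10 (-0.79 ± 0.11), Mrpl11 (-0.75 ± 0.17) and Mrpl12 (-0.57 ± 0.17) were among those that fell. Other probe sets of Mrpl11 had only -0.11 at a mean signal of 340.5 and -0.21 at 103.6. Mrps7 (-0.65 ± 0.14), whose bacterial counterpart organizes the head of the small subunit, fell too. So did Mrps23 (-0.73 ± 0.12), Mrpl37 (-0.55 ± 0.16), Mrps34 (-0.52 ± 0.15) and Mrps18b (-0.49 ± 0.14). Mrpl48 missed the threshold (-0.52 ± 0.21, adjusted p = 0.0538). The 5 that rose were Mrpl1 (0.64 ± 0.17), Mrpl47 (0.55 ± 0.14), Mrps31 (0.55), Mrpl32 (0.48 ± 0.18) and Mrps9 (0.40 ± 0.14). Mrps31, a small subunit protein found only in mitochondria, had signals of 180.1, 179 and 158 in Ctrl28, against 119.8, 124 and 109 in Ctrl (adjusted p = 0.00271). Its Ctrl28 arrays were the highest of all groups. Mrpl32, which must be cut by a mitochondrial protease before it joins the ribosome, had 572, 322 and 313 in Ctrl28, against 256, 275 and 303 in Ctrl, and array 1 was far above the other Ctrl28 arrays.

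Array 1 of Ctrl28 also stood out in other members, at 1036 for Mrps18c, 1501 for Mrps33 and 1013 for Mrpl52, where the remaining Ctrl28 arrays had 385 to 400.2, 855 to 901 and 430.5 to 469.6. Without it 36 members fell and 4 rose in Ctrl28 against Ctrl (median -0.39), where 29.5% of all genes fell and 23.8% rose. Without array 2 of Ctrl 7 fell and 3 rose, where 14.15% of all genes fell and 10.13% rose. Without array 2 of Ctrl28 11 fell and 4 rose, where 15.3% of all genes fell and 10.9% rose. With the gap as a covariate 37 fell and 2 rose (median -0.50), where 28.1% of all genes fell and 22.2% rose, and Mrpl32 turned to -0.04. Any shared handling of the Ctrl28 arrays and the group itself cannot be told apart.

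The change under 28 days was set against that under 5 days, each with its own control and no shared array. The difference between the log2 fold change of IH28D against Ctrl28 and that of IH5D against Ctrl passed in 5 of 76 members, 4 higher and 1 lower, where 6.58% of all genes were higher and 3.08% lower. The median difference over the members was 0.04. The 4 were Mrpl4 (1.18 ± 0.20, adjusted p = 0.00189), Mrpl38 (0.91 ± 0.18, adjusted p = 0.00544), Mrpl10 (0.68 ± 0.16, adjusted p = 0.0128) and Mrps23 (0.60 ± 0.16, adjusted p = 0.028), and the lower one was Mrps31 (-0.61 ± 0.18, adjusted p = 0.0366). Without array 1 of Ctrl28, 10 were higher and 3 lower, where 15.9% of all genes were higher and 12.7% lower, and the median was 0.20. The count was 3, all higher, without array 2 or 3 of Ctrl, array 1 or 3 of IH5D or array 1 of IH28D. There 3.65% to 4.74% of all genes were higher and 0.90% to 1.65% lower.

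Across all comparisons with a control group, 7 members never passed the test on the probe set used: Mrpl18, Mrpl22, Mrpl33, Mrpl50, Mrps5, Mrps18c and Mrps22. The second probe set of Mrpl50, not tested on its own, had a log2 fold change of 1.05 in IH5D against Ctrl. It had 1.60 in Ctrl28 against Ctrl and -0.52 in IH28D against Ctrl28.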

How the data were processed

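RNA of mouse hippocampus was measured on 18 arrays (Affymetrix GeneChip Mouse 430 2.0) in 6 groups of 3, taken from the labels. The authors summarised and normalized the probes with the mas5 method in R, and the deposited values are log2 MAS5 signals; the trimmed mean of the unlogged values was 100.03 to 100.04 on every array, and the versions used are not given in the sources used here. Of 45101 probe sets, 34958 named exactly 1 gene; 9211 named none and 932 several. Mrpl30 and Mrpl53 were only on probe sets of several genes and are no members. Genes with a mean unlogged signal over 20, the minimum of the study's methods, were kept, with the probe set of the highest mean signal for each gene, which left 11657 genes.

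All 18 arrays were fitted in 1 model with limma 3.58.1 (lmFit, contrasts, eBayes with trend) in R 4.3.3, with Benjamini-Hochberg adjustment over all genes and a threshold of 0.05; 12 residual degrees of freedom were left. The script was tested on simulated data. The number of arrays limits the precision. Members, gene lists and tests were chosen with earlier results of these data known. Named members were the 3 of smallest p in each subunit and counterpart class in 3 comparisons, all or the first few called in the IH5D and IH5DR2 comparisons, members called in opposite directions or against the majority, members whose symbol misleads, paralogs, and calls with an opposing probe set; others were chosen after their values were seen, such as Mrps14 in 12 m against Ctrl28 and the neighbours of promoters. Alternatives were other scaling, no minimum signal, the mean of all probe sets, the compared groups alone, the array number as a block, the 3'-5' difference of the control probe sets as a covariate, the methods' t-test (at the methods' unadjusted p below 0.05 and after Benjamini-Hochberg adjustment) and leaving out each array. Equal array numbers correlated in their deviations from the group means at 0.153 to 0.289 between IH5D and Ctrl, over 0.1 in all 3 pairs. No other pair of groups had all 3 over 0.1. Arrays of unequal number reached higher values in other groups, such as 0.336 for Ctrl 1 with Ctrl28 3 and 0.306 for Ctrl 2 with Ctrl28 1. These correlations therefore do not establish a pairing, and the labels name no batch.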

Additional observations from a re-analysis of the deposited data

Results flagged for a closer look

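In 5 members the log2 fold change of IH28D against Ctrl28 differed from that of IH5D against Ctrl by limma's test of the difference itself, 4 of them higher and 1 lower, where 6.58% of all genes were higher and 3.08% lower. The difference was 1.18 for Mrpl4, 0.91 for Mrpl38, 0.68 for Mrpl10 and 0.60 for Mrps23, and it was -0.61 for Mrps31. In Mrpl4, Mrpl38, Mrpl10 and Mrps23 the Ctrl28 arrays were all below the Ctrl arrays, and in Mrps31 they were all above them. The 3' to 5' gap of Ctrl28 was 0.822 to 2.39 and that of the other 3 groups in this comparison 0.328 to 0.535. Its part in the difference was not tested. In the fit with the gap as a covariate, whose slope rests mostly on Ctrl28, 13 members were higher and 1 lower. There 16.4% of all genes were higher and 13.9% lower.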

How the results depend on the processing

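Counts of members that passed the test are given as all calls, with rises and falls where they differ from the report. In IH5D against Ctrl (3 calls) the count was 1 without a minimum signal, 1 with the mean of all probe sets, 11 with the compared groups alone, 23 with the 3'-5' difference of control probe sets as covariate and, by the methods' t-test, 18 at its unadjusted threshold and 0 after Benjamini-Hochberg adjustment. In IH5DR2 against Ctrl (1 call) it was 4 under median centring, 0 under quantile normalization, without a minimum signal, with the mean of all probe sets and by the adjusted t-test, 16 with the compared groups alone, 21 with the gap and 22 by the unadjusted t-test. Of all genes, 3.25% rose and 1.9% fell there under median centring, and 11.3% and 7.55% did with the groups alone. With the gap 13.8% rose and 8.7% fell, and by the unadjusted t-test 9.95% rose and 11.3% fell. The groups alone gave 0 in IH28D against Ctrl28 and in 12 m against Ctrl28, 7 in Ctrl28 against Ctrl and 3 in the difference of 28 and 5 days. With them 6.56% of all genes rose and 10.35% fell in Ctrl28 against Ctrl. In the difference 4.56% of all genes were higher and 1.39% lower. The gap as a covariate gave 7 in 12 m against Ctrl28, 39 in Ctrl28 against Ctrl and 14 in the difference, and the mean of all probe sets gave 3 there, where 6.84% of all genes were higher and 1.98% lower. After adjustment the t-test gave 16 in 12 m against Ctrl and 0 in IH28D against Ctrl28, IH28D against Ctrl, 12 m against Ctrl28 and Ctrl28 against Ctrl, where it gave 63, 7, 36, 15 and 18 in that order without adjustment. Of all genes 27.3%, 3.92%, 18.2%, 6.79% and 14.2% were lower without adjustment in the same order. Those higher were 17.9%, 6.33%, 15.4%, 5.46% and 9.12%. It gave 3 and 0 in IH5DR2 against IH5D, without and with adjustment, and was not run for the difference. With the array number as a replicate block the count was 1 in IH5D against Ctrl and 0 in IH5DR2 against Ctrl. It was 43 in IH5D against Ctrl with the IH5D and Ctrl arrays alone, chosen after seeing the data. Whether the numbers pair arrays is not known. The other counts stayed within 1.5 times, at 60 in 12 m against Ctrl, for example. Leaving out each array gave 0 to 22 calls in IH5D against Ctrl, 0 to 21 in IH5DR2 against Ctrl, 2 to 10 in IH28D against Ctrl28, 12 to 54 in IH28D against Ctrl, 9 to 34 in 12 m against Ctrl28, 10 to 40 in Ctrl28 against Ctrl and 3 to 13 in the difference. In 12 m against Ctrl it stayed at 49 to 67 and in IH5DR2 against IH5D at 0. The share of all genes moved too, such as 4.83% to 23.5% fallen in IH28D against Ctrl. Of the single members, Mrps33 turned to 0.10 in IH28D against Ctrl28 and Mrpl32 to -0.041 in Ctrl28 against Ctrl with the gap, and with the mean of all probe sets Mrpl51 turned to 0.001 in IH28D against Ctrl and Mrps2 to 0.21 in 12 m against Ctrl28. The cause was not tested.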
